A study of Mus musculus with 6 samples.

Results

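The lysyl oxidases (Lox, Loxl1, Loxl2, Loxl3 and Loxl4), the lysyl hydroxylases (Plod1, Plod2 and Plod3), the procollagen protease Bmp1 and the collagen chaperone Serpinh1 make up the enzymes and helpers that modify, process and crosslink collagen. Their 10 genes were taken by symbol from a table of read counts for 23420 genes, and all 10 were present and passed the filter on low counts. RNA was sequenced from mouse embryonic fibroblasts (MEFs) of a mixed 129/Sv-C57BL/6 strain that carried the adenoviral oncogene E1A and HrasG12V, an activated Ras, in both groups compared. The sgp53 cells had received a guide RNA against p53, labelled sgp53(1), and were labelled p53 null in lines 1 and 3 and functionally inactive for p53 in line 2. The sgNTC cells of the same 3 lines had a non-targeting guide and were labelled p53 wild-type. Each line gave 1 library of each kind, 6 in all. All cells had grown for 24 h at 37 °C in 5% oxygen and 5% CO2 after plating.

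Collagen chains are modified and folded in the endoplasmic reticulum, where lysyl hydroxylases add hydroxyl groups to lysines and the chaperone encoded by Serpinh1 binds the folded triple helix. Outside the cell, Bmp1 cuts the carboxyl-terminal propeptide from procollagen so that fibrils can form, and it also activates the precursor of lysyl oxidase. Lysyl oxidases then oxidise lysines and hydroxylysines, and the aldehydes that result join neighbouring chains. Fibroblasts are the main cells that make this machinery in connective tissue.

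Library totals were between 29564516 and 35860866 counts in sgp53 and between 27503577 and 32536641 counts in sgNTC. The targeted gene, Trp53, had 71.1, 72.0 and 113 CPM (read counts scaled to the normalized library total) in sgp53 lines 1, 2 and 3, against 206, 277 and 253 CPM in sgNTC lines 1, 2 and 3. RNA does not show the protein level. The mesenchymal genes Vim, Pdgfra and Pdgfrb were detected in all 6 libraries, while the fibroblast marker Lum had no count in 5 of them. The sgp53 library of line 3 stood apart in the ribosomal RNA precursor Rn45s, with 3338 CPM against 636 to 864 CPM in the other 5 libraries. Each enzyme was also fitted without that library, as it was without each of the others in turn.

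Of the 10 enzymes, 5 rose in sgp53 and none fell by edgeR's quasi-likelihood test (Benjamini-Hochberg adjusted p under 0.05 over the 13044 genes tested). They were Lox, Loxl1, Plod1, Plod3 and Serpinh1. Over all genes tested, 6.45% were called in either direction and 2.76% were called higher and 3.69% lower. At an unadjusted p under 0.05 the counts were 8 of the 10 enzymes and 29.0% of all genes tested. The median log2 fold change of sgp53 over sgNTC was 0.79 for the 10 enzymes and -0.01 over all genes tested, and 9 of the 10 values were positive. The enzymes were chosen with earlier results of these data known, so these contrasts with all genes are a description. The CPM of sgp53 and sgNTC did not overlap for 9 of the 10 enzymes, 8 higher and Plod2 lower, against 36.8% of all genes tested (17.8% higher and 19.0% lower).

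Fewer enzymes were called in smaller or paired fits. A block for the line left 3 called (Lox, Loxl1 and Plod1), beside 2.38% of all genes in either direction. The count was 2 without sgp53 line 1, 3 without sgNTC line 2 and 2 without sgNTC line 3, at 1.10%, 2.20% and 1.00% of all genes. It was 4 without sgp53 line 2 (2.83%), sgp53 line 3 (2.59%) or sgNTC line 1 (5.30%). Without both libraries of line 1 it was 0 (0.359%), with 8 enzymes and 21.1% of all genes at an unadjusted p under 0.05. Lines 2 and 3, which remain in that fit, share a number in the sample descriptions whose meaning is not stated. Without line 2 and without line 3 the count was 1 each (0.486% and 0.145%), as it was with the block and without line 3 (0.0989%). It stayed at 5 with RLE factors (6.46%), library totals alone (6.96%) and no filter on low counts (4.26%). DESeq2 called 8 enzymes (18.2%) and limma-voom 3 (5.35%).

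**Figure D1:**
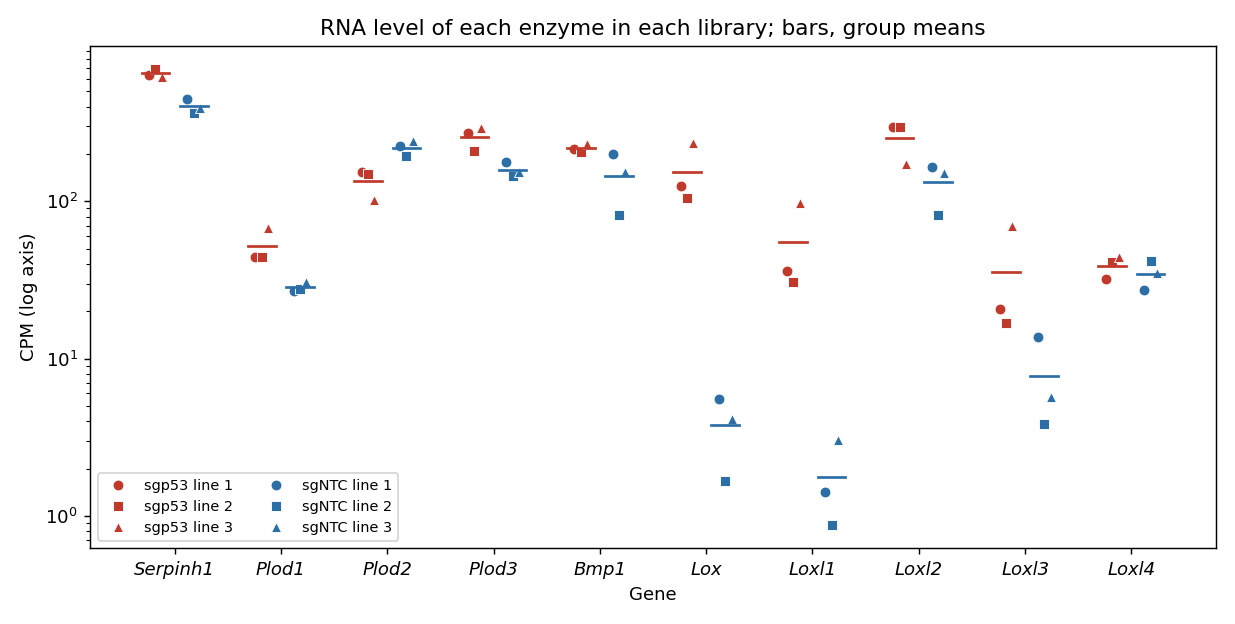
CPM of each enzyme in each of the 6 libraries on a log axis, with sgp53 (red) left of sgNTC (blue), 1 symbol per line and bars at the group means. Lox lies between 105 and 234 CPM in sgp53 and between 1.67 and 5.50 CPM in sgNTC, while the Loxl4 libraries of the groups overlap.

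Promoter sequence was at hand for 4 of the 10 enzymes (RefSeq, GRCm38.p6), namely Serpinh1, Plod1 and Plod3, which rose, and Loxl4, whose groups overlapped. The 250 bases before each annotated start are shown on the gene's strand, to set promoters of enzymes that rose beside that of an enzyme that was not called. Capitals mark GGGCGG, the GC box bound by Sp1-type factors, and ACGTG or GCGTG, the core of the hypoxia response element bound by HIF factors. Both were searched on both strands, and no match of the first overlapped the other. The Serpinh1 window is chr7:99353240-99353489 (minus strand), that of Plod1 chr4:147936777-147937026 (minus), that of Plod3 chr5:136986769-136987018 (plus) and that of Loxl4 chr19:42612807-42613056 (minus).
Serpinh1: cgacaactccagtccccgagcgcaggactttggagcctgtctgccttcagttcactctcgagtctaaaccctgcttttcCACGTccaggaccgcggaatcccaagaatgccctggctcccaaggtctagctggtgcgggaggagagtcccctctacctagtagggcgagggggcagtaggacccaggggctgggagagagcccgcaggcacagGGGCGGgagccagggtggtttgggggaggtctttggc
Plod1: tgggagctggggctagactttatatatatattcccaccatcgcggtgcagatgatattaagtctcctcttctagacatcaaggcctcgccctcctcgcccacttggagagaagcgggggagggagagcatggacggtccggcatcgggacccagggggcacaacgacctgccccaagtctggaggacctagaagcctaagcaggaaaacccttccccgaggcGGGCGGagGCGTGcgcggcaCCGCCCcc
Plod3: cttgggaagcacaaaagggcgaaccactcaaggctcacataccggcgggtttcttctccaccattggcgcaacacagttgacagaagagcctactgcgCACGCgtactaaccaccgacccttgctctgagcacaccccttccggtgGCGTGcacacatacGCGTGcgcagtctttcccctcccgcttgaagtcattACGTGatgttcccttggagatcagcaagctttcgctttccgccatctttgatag
Loxl4: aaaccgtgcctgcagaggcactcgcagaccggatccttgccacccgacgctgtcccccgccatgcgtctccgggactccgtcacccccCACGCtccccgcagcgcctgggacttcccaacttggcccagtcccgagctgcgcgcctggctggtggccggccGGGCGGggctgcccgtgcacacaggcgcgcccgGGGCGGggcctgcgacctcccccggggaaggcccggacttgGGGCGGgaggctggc

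The GC box occurred 1 time before Serpinh1, 2 times before Plod1, 0 times before Plod3 and 3 times before Loxl4, and 32.7% of all 32851 promoter windows of this length held it. The hypoxia response core occurred 1 time before Serpinh1, 1 time before Plod1, 4 times before Plod3 and 1 time before Loxl4, against 38.6% of all windows with at least 1. The consensus half-site of p53 was in none of the 4 windows and in 7.13% of all windows. The windows held between 55.6% and 76.0% G and C, against a median of 52.4%. These letters describe the windows alone, and Loxl4, which was not called, held both motifs as Serpinh1 and Plod1 did.

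Serpinh1 (chromosome 7, 99345376 to 99353239, GRCm38, GENCODE M21) encodes the collagen chaperone. It had 636, 696 and 619.9 CPM in sgp53 lines 1, 2 and 3, against 448, 366 and 393 CPM in sgNTC lines 1, 2 and 3. All sgp53 libraries were above all sgNTC libraries, and each group varied little, with a coefficient of variation of 6.13% in sgp53 and 10.4% in sgNTC. Serpinh1 rose with a log2 fold change of 0.69 (SE 0.09 and adjusted p = 0.0138, edgeR). The adjusted p was 0.0506 with the line as a block, 0.0580 without sgp53 line 1 and 0.0737 without sgNTC line 3. Without both libraries of line 1, line 2 and line 3 the edgeR adjusted p was 0.0670, 0.0918 and 0.144.

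Of the 3 lysyl hydroxylases, Plod1 and Plod3 rose in sgp53, while Plod2 was lower without passing the threshold. Plod1 (chromosome 4, 147909753 to 147936767) hydroxylates lysines within the triple helix. It had 44.0, 44.4 and 67.7 CPM in sgp53 lines 1, 2 and 3, against 26.7, 27.5 and 30.9 CPM in sgNTC. The sgp53 libraries were all higher, line 3 most of all. Plod1 rose with a log2 fold change of 0.87 (SE 0.18 and adjusted p = 0.0448, edgeR). That call was lost when any 1 library other than sgp53 line 3 was left out (edgeR adjusted p between 0.0651 and 0.121), and by limma-voom (adjusted p = 0.0562). Leaving out both libraries of line 1, line 2 or line 3 also ended it (edgeR adjusted p = 0.150, 0.135 and 0.0897).

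Plod3 (chromosome 5, 136987019 to 136996648) encodes a hydroxylase that also transfers sugars to hydroxylysine. Its levels were 271, 209 and 294 CPM in sgp53 lines 1, 2 and 3, against 177, 145 and 154 CPM in sgNTC. The groups did not overlap. Plod3 rose with a log2 fold change of 0.70 (SE 0.14 and adjusted p = 0.0401, edgeR). The adjusted p was 0.0501 with the line as a block and between 0.0906 and 0.136 without sgp53 line 1, sgp53 line 3, sgNTC line 2 or sgNTC line 3. With both libraries of line 1, line 2 or line 3 left out, the edgeR adjusted p was 0.147, 0.0748 and 0.238.

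Plod2 (chromosome 9, 92542223 to 92608428) hydroxylates lysines of the telopeptides, the short ends of the chains where crosslinks start. It had 154, 148 and 101 CPM in sgp53 lines 1, 2 and 3, against 225, 193 and 241 CPM in sgNTC. It was lower in the sgp53 library of each line and lowest in sgp53 line 3. The log2 fold change of Plod2 was -0.70 (SE 0.17), which missed the threshold by edgeR (adjusted p = 0.0613) and passed it by DESeq2 (adjusted p = 0.00103). Plod2 was the only enzyme of the 10 with a negative fold change.

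Per kilobase of exon, the 3 lysyl hydroxylases summed to 129 ± 11.5 CPM per kb in sgp53 and 115 ± 10.0 CPM per kb in sgNTC (SD, n = 3 each; exact permutation test, two-sided p = 0.3, 0.3 adjusted over 2 families). Plod2 held 30.5%, 34.4% and 20.1% of that sum in sgp53 lines 1, 2 and 3, against 49.7%, 50.1% and 53.9% in sgNTC. Plod3 held 60.5%, 55.0% and 66.0% in sgp53, against 44.2%, 42.6% and 39.0% in sgNTC. The most abundant hydroxylase RNA per length was thus Plod3 in every sgp53 library and Plod2 in every sgNTC library. Plod1 held 8.95% to 13.8% in sgp53 and 6.08% to 7.35% in sgNTC. With 3 libraries against 3 an exact permutation test that ignores the pairing by line cannot go below p = 0.1. Each of these 3 shares gave that value (0.114 adjusted over 8 shares). Shares of a family add up to the whole in each library, so these 3 are not separate results.

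Bmp1 (chromosome 14, 70474558 to 70520234), the procollagen C-proteinase, had 214, 206 and 231 CPM in sgp53 lines 1, 2 and 3, against 201, 81.9 and 153 CPM in sgNTC. The sgp53 libraries lay close together, with a coefficient of variation of 5.95%, while the sgNTC libraries spread widely at 41.3%. The highest sgNTC library, line 1, nearly reached the sgp53 levels. The log2 fold change of Bmp1 was 0.58 (SE 0.30 and adjusted p = 0.25, edgeR), and no alternative fit called it.

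Lox encodes lysyl oxidase itself. It had 125, 105 and 234 CPM in sgp53 lines 1, 2 and 3, against 5.50, 1.67 and 4.13 CPM in sgNTC, which were 183, 46 and 122 counts. The lowest sgp53 library was far above the highest sgNTC library. Within lines 1, 2 and 3 the fold of sgp53 over sgNTC, from log2 CPM with a prior count of 2, was 22.4, 60.5 and 55.7. Lox had the largest log2 fold change of the 10 enzymes, 5.34 (SE 0.51 and adjusted p = 0.00614, edgeR), and was called when any 1 library was left out (edgeR adjusted p between 0.0108 and 0.0434). Its log2 value was 4.91 without sgp53 line 3. The adjusted p was 0.0632 without line 1 and 0.0873 without line 3.

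Loxl1 (chromosome 9, 58287738 to 58313186) encodes the family member best known for elastic fibre upkeep. Its levels were 36.0, 30.9 and 97.8 CPM in sgp53 lines 1, 2 and 3, against 1.41, 0.870 and 3.01 CPM in sgNTC. In both groups line 3 was highest and line 2 lowest, and within lines the fold was 24.4, 33.1 and 31.8. Loxl1 rose with a log2 fold change of 4.95 (SE 0.66 and adjusted p = 0.0153, edgeR). The call was kept when any 1 library was left out, with a log2 value of 4.24 without sgp53 line 3. It was lost by limma-voom (adjusted p = 0.0575) and in edgeR without line 1 (adjusted p = 0.109) or line 2 (adjusted p = 0.0885).

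Loxl2 (chromosome 14, 69609068 to 69695834), which also acts on the type IV collagen of basement membranes, had 295, 295 and 173 CPM in sgp53 lines 1, 2 and 3, against 166, 82.0 and 151 CPM in sgNTC. The sgp53 library of line 3, highest for Lox and Loxl1, was lowest in its group for Loxl2. The difference within lines ran from 1.15-fold in line 3 to 3.59-fold in line 2. Its log2 fold change of 0.93 (SE 0.31) missed the threshold by edgeR (adjusted p = 0.115) and passed it by DESeq2 (adjusted p = 0.00891).

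Loxl3 (chromosome 6, 83034173 to 83052562), which is needed for palate and spine development in mice, varied most between sgp53 libraries. It had 20.7, 16.8 and 69.8 CPM in sgp53 lines 1, 2 and 3, against 13.8, 3.84 and 5.69 CPM in sgNTC. The sgp53 level of line 3 was 3.73 times the mean of lines 1 and 2. The log2 fold change was 2.19 (SE 0.71 and adjusted p = 0.107 by edgeR; DESeq2 adjusted p = 0.0422), and its value was 1.26 without sgp53 line 3.

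Loxl4 (chromosome 19, 42593982 to 42612813), a further lysyl oxidase, had 32.1, 40.9 and 44.1 CPM in sgp53 lines 1, 2 and 3, against 27.2, 41.4 and 35.2 CPM in sgNTC. The groups overlapped, and line 1 was the lowest of both. The log2 fold change was 0.17 (SE 0.18 and adjusted p = 0.561, edgeR), and no alternative fit called it.

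**Figure D2:**
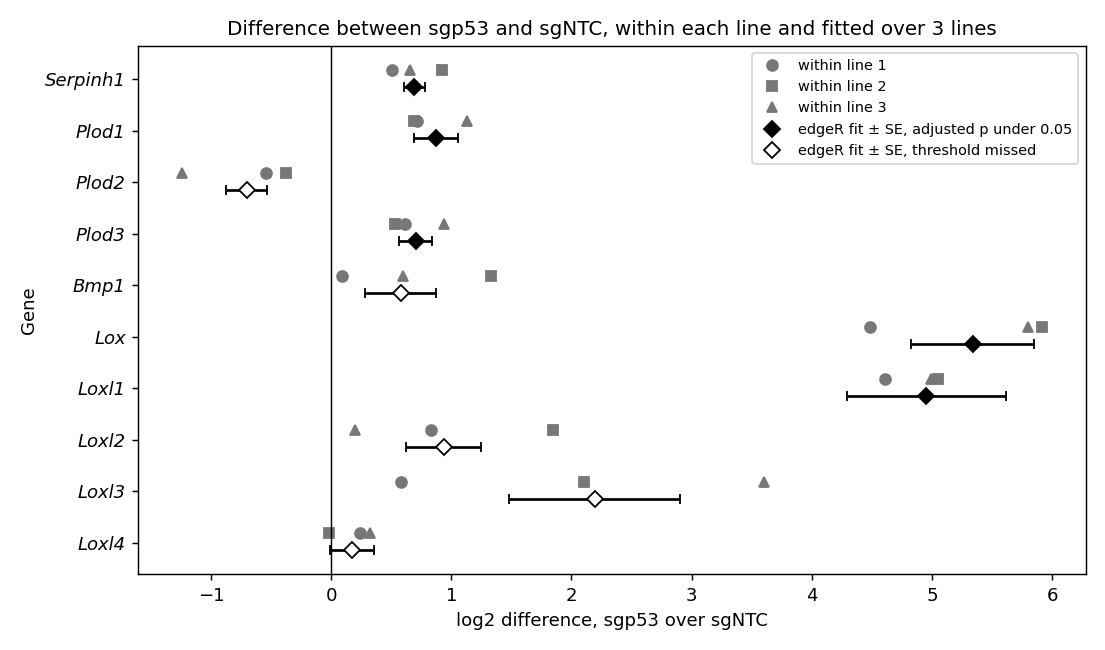
Log2 difference of sgp53 over sgNTC for each enzyme, within each line (grey symbols) and as fitted by edgeR over 3 lines (diamonds with SE; filled where the adjusted p was under 0.05). Lox and Loxl1 lie near 5.34 and 4.95, the other called genes lie between 0.69 and 0.87, and Plod2 is below 0 in each line.

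The lysyl oxidases together summed to 115 ± 21.0 CPM per kb in sgp53 and 37.1 ± 8.11 CPM per kb in sgNTC (SD, n = 3 each), a ratio of 3.11 (exact permutation test, two-sided p = 0.1, the smallest possible; 0.2 adjusted over 2 families). Lox held 24.8%, 21.7% and 35.1% of the sum in sgp53 lines 1, 2 and 3, against 2.68%, 1.26% and 2.14% in sgNTC. Loxl2 held 51.9%, 54.1% and 22.9% in sgp53, against 71.6%, 54.6% and 68.9% in sgNTC. Loxl2 was the most abundant lysyl oxidase RNA per length in all libraries other than sgp53 line 3, where Lox was. Loxl4, whose CPM overlapped between groups, held 8.15% to 10.8% in sgp53 and 16.9% to 39.8% in sgNTC. Of the 5 shares, Loxl3 alone overlapped between groups (exact permutation p = 0.5, 0.5 adjusted over 8 shares), and the others gave p = 0.1 (0.114 adjusted). Shares of a family add up to the whole in each library, so the lower shares of Loxl2 and Loxl4 are not separate results. In CPM, Loxl2 was higher in sgp53 (173 to 295 CPM) than in sgNTC (82.0 to 166 CPM). The same was not worked out for all genes, so the count without overlap is a description only.

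**Figure D3:**
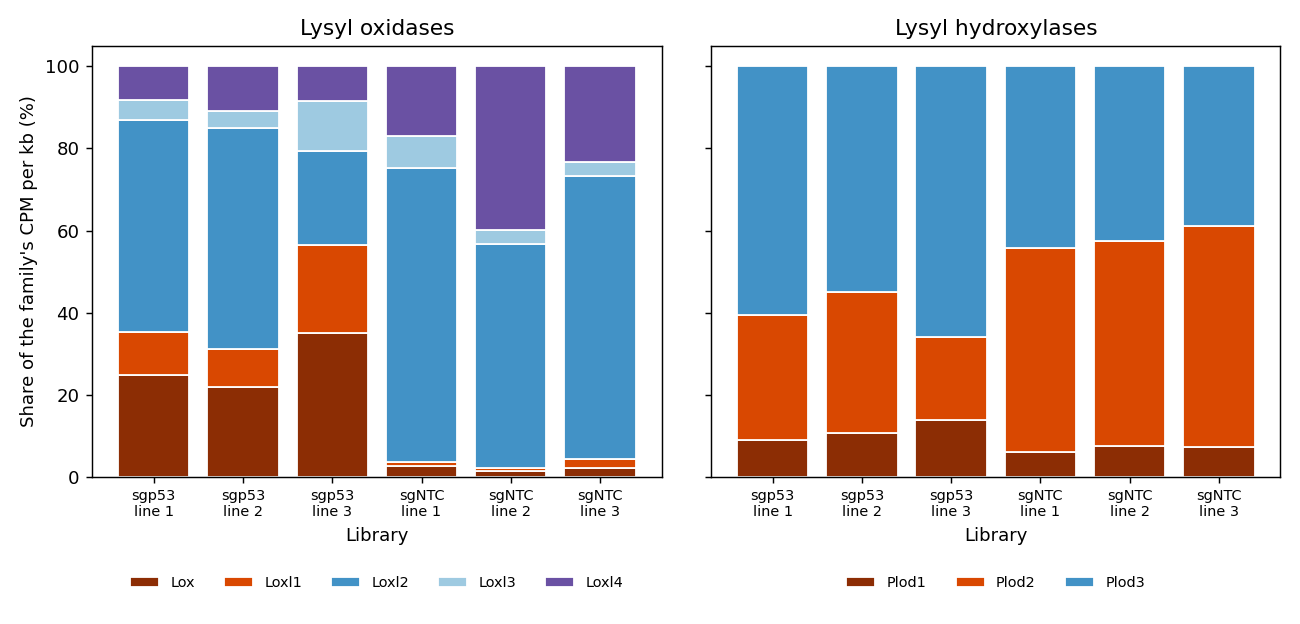
Share of each gene in its family's summed CPM per kb of exon, in each library, for the lysyl oxidases (left) and lysyl hydroxylases (right), with sgp53 libraries left of sgNTC libraries. Lox and Loxl1 are thin bands in sgNTC (Lox 1.26% to 2.68%) and broad in sgp53 (Lox 21.7% to 35.1%), and Plod2 is 20.1% to 34.4% in sgp53 and 49.7% to 53.9% in sgNTC.

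Ordered by mean level per length, the sgp53 libraries gave Serpinh1, Plod3, Bmp1, Loxl2, Plod2, Lox, Loxl1, Plod1, Loxl4 and Loxl3, from 266 ± 16.3 CPM per kb for Serpinh1 to 8.72 ± 7.21 CPM per kb for Loxl3 (SD, n = 3). Neighbours from Loxl2 to Plod1 in that order overlapped in their ranges, as did Loxl4 and Loxl3. The sgNTC libraries gave Serpinh1, Plod2, Plod3, Bmp1, Loxl2, Loxl4, Plod1, Loxl3, Lox and Loxl1, from 165 ± 17.1 to 0.535 ± 0.338 CPM per kb. There, neighbours overlapped from Plod2 to Loxl2, between Loxl4 and Plod1, and from Loxl3 to Loxl1. Serpinh1 did not overlap any other gene in either group.

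Some exons lie opposite another gene, and the strand setting of the counting is not given. Plod3 shares 529 bases (11.7% of the exon bases of all its annotated transcripts) with Znhit1, and Loxl3 shares 535 bases (11.6%) with Htra2, both on the opposite strand. Znhit1 was at 22.1 to 24.8 CPM in sgp53 and 23.2 to 25.0 CPM in sgNTC, and Htra2 at 60.2 to 71.8 CPM in sgp53 and 45.9 to 57.4 CPM in sgNTC; neither was called (edgeR adjusted p = 0.717 and 0.083). Lox, Loxl2 and Plod2 share 0.628%, 5.57% and 6.42% of their exon bases with noncoding genes of the opposite strand.

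Col1a1 and Col1a2, the chains of type I collagen, summed to 630 CPM in sgp53 line 1, 402 CPM in line 2 and 1531 CPM in line 3, against 31.0, 11.5 and 17.2 CPM in sgNTC. For every 100 counts of these chains there were 19.8, 26.0 and 15.3 counts of Lox in sgp53 lines 1, 2 and 3, against 17.8, 14.5 and 24.1 in sgNTC, and the groups overlapped (exact permutation test on log2 values, two-sided p = 0.7, 0.778 adjusted over 10 enzymes). Loxl1 had 5.72, 7.66 and 6.39 counts per 100 in sgp53, against 4.56, 7.57 and 17.6 in sgNTC, also with overlap (exact permutation p = 0.8, 0.8 adjusted). Because the type I collagen sum itself was far higher in sgp53, 99.0% of all genes tested were lower per type I collagen count in every sgp53 library than in any sgNTC library. The other 8 enzymes were among them, Loxl4 and the called Serpinh1 included, so their lower ratios are no result about these enzymes. The sgNTC ratios rest on few collagen counts and were read only between libraries, since genes differ in length.

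**Figure D4:**
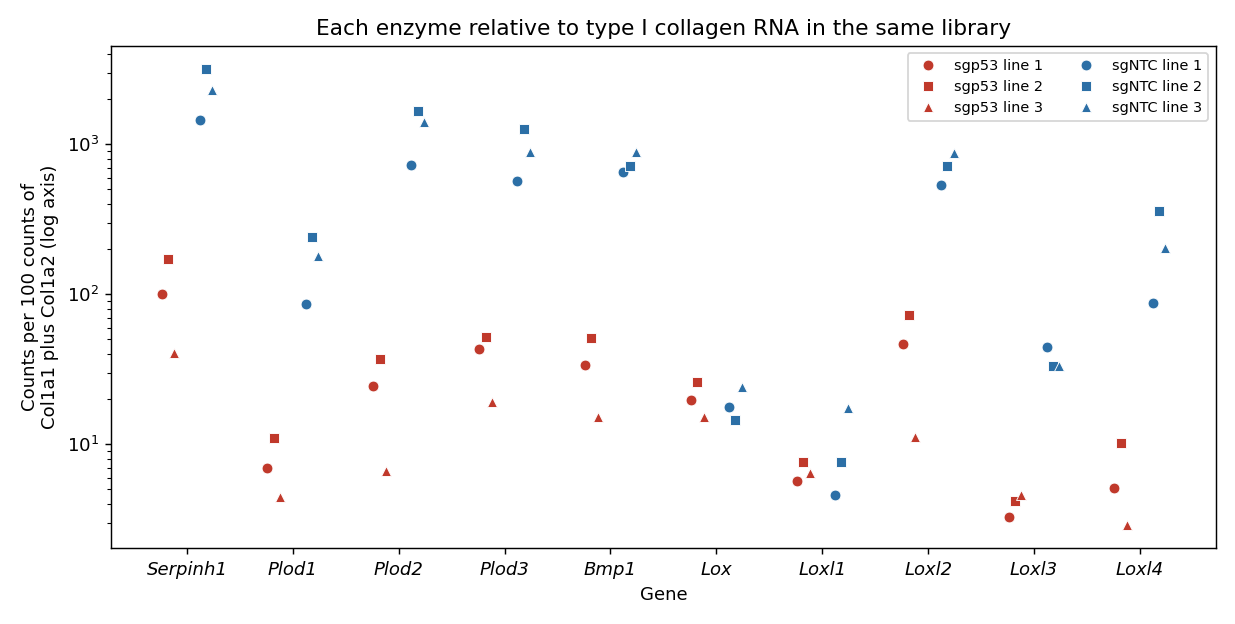
Counts of each enzyme per 100 counts of Col1a1 plus Col1a2 in the same library, on a log axis, with sgp53 (red) left of sgNTC (blue) and 1 symbol per line. Lox (15.3 to 26.0 in sgp53, 14.5 to 24.1 in sgNTC) and Loxl1 overlap between groups, and the other enzymes lie lower in sgp53, as do 99.0% of all genes tested.

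Other genes of collagen assembly were counted beside the enzymes. Of 11 fibrillar collagen chains, all tested, 5 rose and none fell, beside 2.76% of all genes called higher and 3.69% lower. The median log2 fold change of the chains was 1.83. Col5a1, a chain that regulates fibril diameter, had 381, 427 and 396 CPM in sgp53 lines 1, 2 and 3, against 183, 187 and 154 CPM in sgNTC (log2 fold change 1.20, SE 0.09 and adjusted p = 0.0028 by edgeR). Col1a1 and Col1a2 rose with log2 fold changes of 5.68 (SE 0.58) and 5.16 (SE 0.78). The count of chains called was 2 without sgp53 line 1 (1.10% of all genes) or sgNTC line 2 (2.20%). It was 3 without sgp53 line 3 (2.59%) or sgNTC line 3 (1.00%).

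Of 17 other enzymes and chaperones of collagen folding, 16 were tested, with a median of 0.29. Beside 2.76% of all genes called higher and 3.69% lower, 4 rose and none fell. They were Fkbp10, a peptidyl-prolyl isomerase (194 ± 11.4 CPM in sgp53 and 147 ± 7.19 CPM in sgNTC), the prolyl hydroxylase genes P4ha2 (63.4 ± 5.30 CPM in sgp53 and 45.3 ± 4.08 CPM in sgNTC) and Lepre1, now named P3h1 (42.8, 48.1 and 44.0 CPM in sgp53 and 34.6, 29.9 and 35.6 CPM in sgNTC), and the collagen galactosyltransferase gene Glt25d1 (SD, n = 3 each). A block for the line left 0 of the 16 called by edgeR, beside 2.38% of all genes. At an unadjusted p under 0.05 that fit had 8 of the 16, beside 26.1% of all genes. DESeq2 called 7, beside 18.2% of all genes. The edgeR count was 0 also without sgp53 line 1 (1.10% of all genes) or sgp53 line 3 (2.59%). So it was without sgNTC line 2 (2.20%) or sgNTC line 3 (1.00%). In those fits 7 to 8 had an unadjusted p under 0.05, beside 21.1% to 23.2% of all genes. The count was 2 without sgp53 line 2 (2.83%) and 1 without sgNTC line 1 (5.30%).

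Of 10 other procollagen proteases and their enhancers, 7 were tested and 2 rose, beside 2.76% of all genes called higher. The median of the 7 was 1.00. Pcolce, the enhancer of Bmp1 on procollagen, had 348, 441 and 446 CPM in sgp53 lines 1, 2 and 3, against 165, 207 and 244 CPM in sgNTC (log2 fold change 1.00, SE 0.16 and adjusted p = 0.0254 by edgeR). Tll1, a tolloid-like relative of Bmp1, had 14.7 ± 4.49 CPM in sgp53 and 4.54 ± 1.27 CPM in sgNTC (SD, n = 3 each; edgeR adjusted p = 0.0294). Neither was called without sgp53 line 1 (1.10% of all genes), sgp53 line 2 (2.83%), sgNTC line 2 (2.20%) or sgNTC line 3 (1.00%). Pcolce also lost its call without sgp53 line 3 (2.59%).

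Of 8 matrix proteins that bind or scaffold lysyl oxidases, 6 were tested and 2 rose, beside 2.76% of all genes called higher. The median of the 6 was 1.35. Fbln5, which tethers Loxl1 to elastic fibres, had 33.7, 43.0 and 71.5 CPM in sgp53 lines 1, 2 and 3, against 7.42, 10.9 and 8.13 CPM in sgNTC (log2 fold change 2.49, SE 0.31 and adjusted p = 0.013 by edgeR). Postn, a matricellular protein that binds Bmp1, had 19.9, 12.2 and 44.0 CPM in sgp53, against 1.14, 0.109 and 0.406 CPM in sgNTC. Neither was called without sgNTC line 3 (1.00% of all genes), and Postn was not called without sgp53 line 1 (1.10%).

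**Figure D5:**
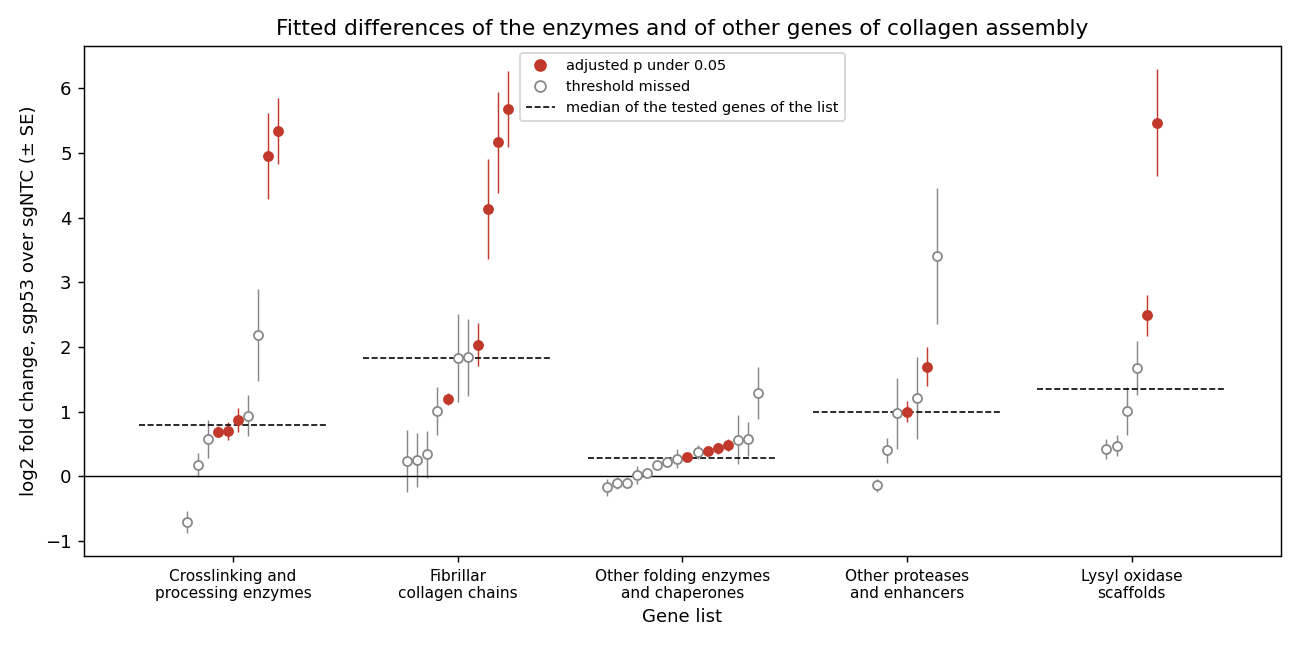
Log2 fold change of sgp53 over sgNTC with its SE for each tested gene of the enzymes and of 4 other lists of collagen assembly, red where the edgeR adjusted p was under 0.05 and with dashed lines at the medians. The medians are 0.79 for the enzymes, 1.83 for the fibrillar chains, 0.29 for the folding genes, 1.00 for the proteases and enhancers and 1.35 for the scaffolds.

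The 5 tested genes whose log2 CPM over the 6 libraries was most like that of Lox were Cnpy4, Ccdc80, Atoh8, Col1a1 and Fstl1, with Pearson r between 0.996 and 0.999. The 6 libraries fall into the 2 groups of the comparison and share its difference, so such values describe these libraries only. Ccdc80 had 4.57, 4.59 and 5.76 CPM in sgp53 lines 1, 2 and 3, against 0.781, 0.399 and 0.542 CPM in sgNTC. Cnpy4, with the highest r, differed little in size, at 48.9, 47.7 and 51.1 CPM in sgp53 and 40.3, 37.4 and 39.3 CPM in sgNTC.

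Markers of other cell types were measured in the same libraries. The 6 epithelial markers summed to 116 to 165 CPM in sgp53 and 294 to 689 CPM in sgNTC; Krt18, a simple keratin, fell to 66.7 ± 23.8 CPM in sgp53, against 415 ± 200 CPM in sgNTC (SD, n = 3 each; edgeR adjusted p = 0.0295, and 0.0534 with the line as a block), and the other 5 were not called. The 5 leukocyte markers summed to 3.51 to 3.92 CPM in sgp53 and 7.45 to 10.4 CPM in sgNTC, nearly all from Cd68, which fell (edgeR adjusted p = 0.0152), and Emr1 and Cd3e were at 0 in every library. The 5 endothelial markers summed to 1.67 to 1.84 CPM in sgp53 and 1.96 to 2.65 CPM in sgNTC, and the 5 muscle markers to 1.40 to 2.22 CPM in sgp53 and 1.11 to 1.88 CPM in sgNTC. The 7 fibroblast markers summed to 2600.3 to 3418 CPM in sgp53 and 2797 to 3410 CPM in sgNTC, mostly Vim, and 0 of them were called (edgeR). Among them Pdgfra, Thy1 and S100a4 were at 131, 53.9 and 99.4 CPM in sgp53 line 3, while in sgp53 lines 1 and 2 Pdgfra was at 26.2 and 21.1 CPM, Thy1 at 4.30 and 3.36 CPM and S100a4 at 8.57 and 15.8 CPM. The part of these differences in the levels of the enzymes was not tested. In bulk RNA, fewer cells that express a gene and less RNA per cell cannot be told apart.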

How the data were processed

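The 6 libraries were built with a stranded TruSeq kit, per the labels' protocols, from 1 µg of RNA whose integrity number was above 8.0. The authors deposited raw read counts per gene symbol, not normalized. CASAVA 1.8, STAR, DESeq2 and the mm10 build are listed in the submitters' processing notes. How reads were counted, on which annotation and with which strand setting, is not given in the sources used here.

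From the deposited counts, sgp53 was compared with sgNTC in R 4.3.3 with edgeR 4.0.16 (quasi-likelihood F-test, TMM, filterByExpr, 13044 genes tested, Benjamini-Hochberg adjustment over all of them, threshold 0.05, 4 residual degrees of freedom). SE is the absolute log2 fold change over the square root of F. Alternatives used RLE factors, library totals, no filter, DESeq2 1.42.0, limma-voom (limma 3.58.1), the line as a block, and libraries or lines left out. CPM are counts over the TMM-scaled total of tested genes, and log2 CPM have a prior count of 2. Folds within lines come from these log2 CPM, so they are not exact ratios of the printed CPM. CPM per kb divides by the union of exons of basic transcripts in GENCODE M21 (GRCm38, the assembly of mm10). Within-library ratios and family sums were tested with exact permutation tests (scipy 1.17.1). These shuffled all 6 libraries freely and took no account of the pairing by line.

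Since the labels assign each number to 1 cell line, the numbers pair the libraries. The paired deviations from the group means correlated at 0.0893, 0.00177 and -0.0272 in lines 1, 2 and 3. Between libraries of different lines the same correlations ran from -0.100 to 0.128, a range that holds the paired values. Replicates differed beyond sampling noise (chi-square per degree of freedom 21.8 to 58.0). Whether each line came from its own embryo is not stated, so p-values measure the spread between these lines.

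The enzymes and lists were chosen with earlier results of these data known. Named genes are all 10 enzymes, Trp53, in each list at most 3 of the called members, taken by smallest adjusted p, and the 5 genes most like the enzyme of largest fold change. Glt25d1, Rn45s, the exon-sharing neighbours, Ccdc80 and Cnpy4 among the 5, and the marker genes with values were picked after values were seen. Older symbols were used for 7 list members, and 1 marker gene is not reported here by name. The tests were tried on simulated data with known changes first. There edgeR recovered 26% of 1.5-fold, 62% of 2-fold, 76% of 4-fold and 96% of 8-fold changes, with 6 false calls among 136. Changes of 1.5-fold were thus missed more often than found.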

Additional observations from a re-analysis of the deposited data

How the results depend on the processing

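No log2 fold change of an enzyme changed direction in 160 refits (10 enzymes, 16 alternatives). The block without line 3 was the 1 alternative chosen after seeing the data. Of the refits, 32 lost a call, 3 gained one and 125 stayed on their side of the threshold. Only the 5 called enzymes could lose a call. Lox and Loxl1 each kept theirs in 13 of the 16 alternatives, Serpinh1 in 9, Plod3 in 7 and Plod1 in 6. The count of enzymes called, 5, was 8 by DESeq2, 3 by limma-voom and 3 with the line as a block, 2 to 4 with 1 library left out, 0 to 1 with 1 line left out, and 1 with the block and without line 3. Over all genes, 841 calls became 2367 by DESeq2, 698 by limma-voom, 908 with library totals only, 747 without the filter and 311 with the block. They became 133 to 700 with 1 library left out and 19 to 64 with 1 line left out. The block without line 3 gave 13. The count of fibrillar chains, 5, was 2 to 5 with 1 library left out, 0 to 2 with 1 line left out and 1 with the block and without line 3. The count of folding genes, 4, was 1 with library totals only, 2 without the filter, 7 by DESeq2, 0 with the block, 0 to 2 with 1 library left out, and 0 with any line left out, with or without the block; the cause was not tested. The count of proteases and enhancers, 2, was 0 to 3 with 1 library left out and 0 with any line left out, with or without the block. The count of scaffolds, 2, was 5 by DESeq2, 1 by limma-voom, 0 to 3 with 1 library left out and 0 with any line left out, with or without the block. The block ended the calls of Serpinh1 (adjusted p = 0.0506) and Plod3 (0.0501) and of no other enzyme. Scaling by RLE or library totals moved the median of all genes by 0.007 and -0.044 (log2) and changed no call of an enzyme. Lox in sgNTC line 2 rests on 46 counts and Loxl1 on 24, so folds within that line are the least precise.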
